A study of Mus musculus with 16 samples.

Results

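Mouse embryonic stem (ES) cells express a small set of genes for DNA topoisomerases and for the enzymes that free DNA from trapped topoisomerases, and 8 of these genes are described here out of 22375 in the deposited tables. They are the topoisomerase genes Top1, Top1mt, Top2a, Top2b, Top3a and Top3b and the tyrosyl-DNA phosphodiesterase genes Tdp1 and Tdp2. They were chosen by name, with earlier results of these data known. All 8 were found in the tables and all 8 passed the filter on low counts that left 15758 genes for testing.

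Ribosomal RNA-depleted total RNA was sequenced from WT (E14Tg2a) and Cfp1-/- ES cells, both of strain 129/OLA, grown in serum and LIF on gelatin. Each line was untreated or treated with doxorubicin for 6 hours, at 1 μM by the treatment protocol, while the treatment field of the treated samples reads 1 mM. The 4 groups hold 2 biological replicates each, and each biological replicate was deposited as 2 technical replicates, which were summed here. Nothing in the sources used here gives more on how the Cfp1-/- line was isolated or whether the biological replicates were separate cultures, so the p-values measure the spread between these samples.

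A topoisomerase cuts DNA, lets strands pass or swivel, and seals the cut, and during this cycle a tyrosine of the enzyme is bound to the DNA end. Type II enzymes (Top2a and Top2b) cut both strands and are the target of doxorubicin, which intercalates into DNA and hinders resealing. Top1 and the mitochondrial Top1mt cut 1 strand and relax supercoils, and Top3a and Top3b act on single-stranded crossings. Tdp2 hydrolyses the bond between topoisomerase II and a DNA end, and Tdp1 that of topoisomerase I. Top2a is high in dividing cells and peaks in G2 and mitosis, whereas Top2b is also made in cells that do not divide.

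Total counts per biological replicate ranged from 14880589 to 29422711. Cxxc1, which encodes Cfp1, had 1412 and 1117 raw counts in untreated WT cells and 616 and 829 in treated WT cells, against 1 to 5 in the 4 Cfp1-/- replicates. The damage-induced gene Cdkn1a had 131 and 226 normalized read counts in untreated and 1805 and 1655 in treated WT cells, and 338 and 263 against 1294 and 1165 in Cfp1-/- cells. All 8 ES cell markers were present, and their summed normalized read count was 68894 to 93980 in untreated and 26620 to 35939 in treated WT cells, and 74132 to 74942 against 25030 to 32903 in Cfp1-/- cells. Single markers differed between the untreated lines in both directions, which the sum hides. Nanog had means of 5035 in WT and 13544 in Cfp1-/- cells, and Zfp42 of 12814 and 5056. Endoderm, mesoderm and trophoblast markers summed to 18.7 to 342 in every replicate. Fibroblast markers summed to 190 and 181 in untreated and 531 and 384 in treated WT cells, and to 123 and 105 against 389 and 532 in Cfp1-/- cells. Among them Col1a2 did not follow the sum in WT cells, with means of 52.7 untreated and 41 treated. The neural marker Pax6 stood at 738 and 1761 in untreated WT cells and at most at 108 elsewhere. The part of these marker levels in the results was not tested. In bulk RNA, fewer cells of a type and less RNA per cell cannot be told apart.

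The technical replicates of both treated replicates 1 differed beyond counting error over all genes (chi-square per degree of freedom 9.61 in WT and 42.9 in Cfp1-/- cells, against 0.998 to 1.05 in the others). In the treated Cfp1-/- library 439 of 8320 well-counted genes, on chromosomes 19, X and Y, were at 0 in the second technical replicate. No member lies on these chromosomes and none was at 0. Top2a had 1439 and 1189 CPM (counts scaled to the library total) in the technical replicates of treated WT replicate 1 and 1383 and 1217 in those of treated Cfp1-/- replicate 1, and Top2b had 212 and 166, and 124 and 101. Without the second technical replicates of these libraries, 4 members were called in WT, 3 in Cfp1-/- cells, 4 between untreated lines and 4 between treated lines. Top1 was the member added between treated lines (-0.46, adjusted p = 0.0319). Of all 15766 genes tested without these technical replicates, 7773, 7810, 5756 and 4329 were called in the same order. With them, 7607, 7692, 5362 and 4074 of 15758 were called.

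Doxorubicin changed 4 of the 8 genes in WT and 3 in Cfp1-/- cells (adjusted p under 0.05, edgeR quasi-likelihood test). In WT cells Top1mt rose, against 26.5% of all tested genes, and Top2a, Top2b and Tdp2 fell, against 21.8%. In Cfp1-/- cells Top1mt rose, against 27.8% of all tested genes, and Top2a and Tdp2 fell, against 21%. With these backgrounds, the number of members called is not in itself a result about the topoisomerases. Over the 8 genes the median of the log2 changes was -0.40 for WT and -0.17 for Cfp1-/- cells, against 0.06 and 0.01 over all tested genes. Top1mt was the 1 member past the study's further limits (2.5-fold or more, with 200 or more normalized read counts on average) in either line. These limits were passed upward by 5.1% of tested genes in WT and 5.38% in Cfp1-/- cells, and downward by 2.8% and 2.23%.

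**Figure D1:**
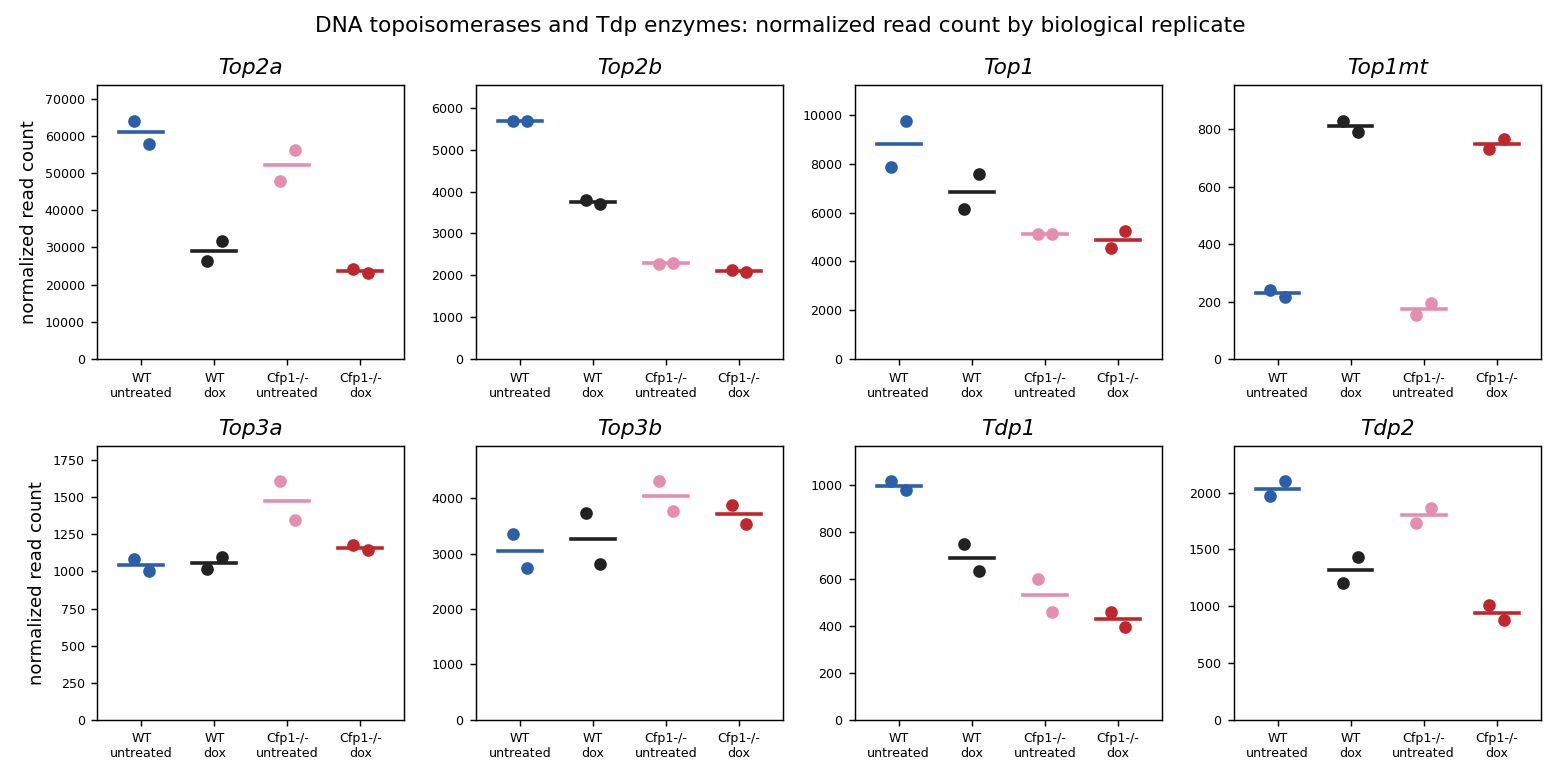
Normalized read count (y axis, linear from 0, its own scale for each gene) of the 8 genes in untreated and doxorubicin-treated WT and Cfp1-/- ES cells (x axis). Points are the 2 biological replicates and lines their means. Top2a lies between 47928 and 64070 in the 4 untreated replicates and between 23172 and 31798 in the treated ones, and Top1mt between 153 and 241 against 732 to 830.

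Top2a encodes topoisomerase IIα, the isoform of dividing cells that untangles and condenses chromosomes at mitosis. The gene (ENSMUSG00000020914) lies at chr11:98854257-98885503 on the minus strand (NCBIm37), spans 31.2 kb and has 36 exons in its longest transcript. Its 250 bases before the RefSeq start, at chr11:99024190-99024439 on the minus strand of GRCm38.p6, are shown first because CCAAT boxes are a known feature of promoters of mitotic genes. The corresponding bases of its paralogue Top2b, at chr14:16364956-16365205 on the plus strand, and of Top1, at chr2:160645647-160645896 on the plus strand, are shown for comparison. Capitals mark CCAAT or its reverse complement ATTGG.
Top2a: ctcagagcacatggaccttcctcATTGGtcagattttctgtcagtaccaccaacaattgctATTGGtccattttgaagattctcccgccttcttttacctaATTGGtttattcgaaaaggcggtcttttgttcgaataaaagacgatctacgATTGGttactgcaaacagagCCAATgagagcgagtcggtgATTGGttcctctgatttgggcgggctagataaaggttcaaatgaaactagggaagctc
Top2b: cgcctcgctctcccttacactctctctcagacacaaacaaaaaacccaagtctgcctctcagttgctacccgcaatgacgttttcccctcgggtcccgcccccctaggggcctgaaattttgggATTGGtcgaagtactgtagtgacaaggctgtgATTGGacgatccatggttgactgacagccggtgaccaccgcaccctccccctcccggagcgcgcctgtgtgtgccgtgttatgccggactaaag
Top1: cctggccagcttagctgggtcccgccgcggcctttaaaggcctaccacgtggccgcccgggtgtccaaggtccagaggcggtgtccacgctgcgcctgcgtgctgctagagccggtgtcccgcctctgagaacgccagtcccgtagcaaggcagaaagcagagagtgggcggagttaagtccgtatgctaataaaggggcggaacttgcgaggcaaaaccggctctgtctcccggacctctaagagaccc

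The Top2a stretch held 6 CCAAT matches on both strands, 5 of them as ATTGG, and the Top2b stretch held 2, both as ATTGG. Over 32851 RefSeq promoter stretches of the same length, 0.0578% held at least 6 and 10.1% at least 2. Top1 held none, nor did Tdp1. Top3b held 1, as 33.8% of all stretches held at least 1. The letters TTTGAA, the core of the cell cycle homology element of mitotic genes, occurred 2 times on both strands for Top2a, as in 1.81% of stretches with at least 2, and 1 time for Tdp1, as in 16% with at least 1. GGGCGG, a GC box, occurred 3 times on both strands for Top1, which 8.47% of stretches reached. None of the CCAAT matches overlapped these other motifs in the 5 stretches. CpG dinucleotides numbered 20 for Top1 and for Tdp1, 15 for Top2b, 9 for Top2a and 7 for Top3b, against a median of 6. A match describes letters and no more. Promoters were matched by symbol for 5 of the 8 genes, and those of Top1mt, Top3a and Tdp2 were not used here.

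In untreated WT cells Top2a stood at 64070 and 57815 normalized read counts, and in treated WT cells at 26260 and 31798. The Cfp1-/- replicates stood at 47928 and 56238 untreated and at 24198 and 23172 treated. In each line both treated replicates lay far below both untreated ones. Top2a fell 2.03-fold in WT (log2 fold change -1.02, SE 0.146, adjusted p = 3.81e-04) and 2.13-fold in Cfp1-/- cells (-1.09, SE 0.146, adjusted p = 2.82e-04). The responses differed by -0.07 on the log2 scale, with an interval of 2 SE from -0.48 to 0.34. Between the lines Top2a was not called, with a log2 difference of -0.20 untreated (SE 0.144, adjusted p = 0.31) and -0.27 treated (SE 0.145, adjusted p = 0.198).

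Top2b encodes topoisomerase IIβ, the isoform that acts at promoters and enhancers of transcribed genes and in cells that have left the cell cycle. The gene (ENSMUSG00000017485) lies at chr14:17197693-17263301 on the plus strand (NCBIm37), spans 65.6 kb and has 36 exons. It was at 5696 and 5693 normalized read counts in untreated and at 3800 and 3704 in treated WT cells. The Cfp1-/- replicates were at 2274 and 2302 untreated and at 2125 and 2083 treated. The 4 groups did not overlap, and untreated Cfp1-/- cells had less Top2b than doxorubicin-treated WT cells.

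Top2b fell 1.47-fold with doxorubicin in WT cells (log2 fold change -0.56, SE 0.111, adjusted p = 0.00264). With scaling by total counts, which moves the median of all tested genes in this comparison up by 0.31, that call was lost (-0.24, adjusted p = 0.0959). The log2 change in Cfp1-/- cells was -0.08 (SE 0.111, adjusted p = 0.591), and with scaling by total counts it was 0.14. The responses of the lines differed by 0.48 on the log2 scale (SE 0.157), with an unadjusted p of 0.013 from edgeR and an adjusted p of 0.311, so the difference did not pass the test. Between the untreated lines Top2b was 2.44-fold lower in Cfp1-/- cells (-1.29, SE 0.112, adjusted p = 1.03e-04), and between the treated lines 1.75-fold lower (-0.81, SE 0.112, adjusted p = 0.0014).

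Per kb of exon, Top2a exceeded Top2b in every replicate. The ratio of their levels per kb was 7.5 ± 0.541 (SD, n = 2) in untreated and 5.43 ± 0.829 in treated WT cells. For Cfp1-/- cells the ratio was 15.9 ± 1.66 without and 7.89 ± 0.13 with doxorubicin. Top2b thus made up 11.3% and 12.3% of the summed Top2 level per kb in untreated WT cells and 17.1% and 14.3% in treated ones. Its share in Cfp1-/- cells was 6.34% and 5.52% untreated and 11.1% and 11.4% treated. The summed level went from 7960 and 7270 to 3493 and 4089 per kb in WT cells, and from 5642 and 6563 to 3002 and 2883 in Cfp1-/- cells. The ratios rest on the exon lengths used and were 11.6, 8.4, 24.7 and 12.2 with the longest transcript, in the same order.

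**Figure D2:**
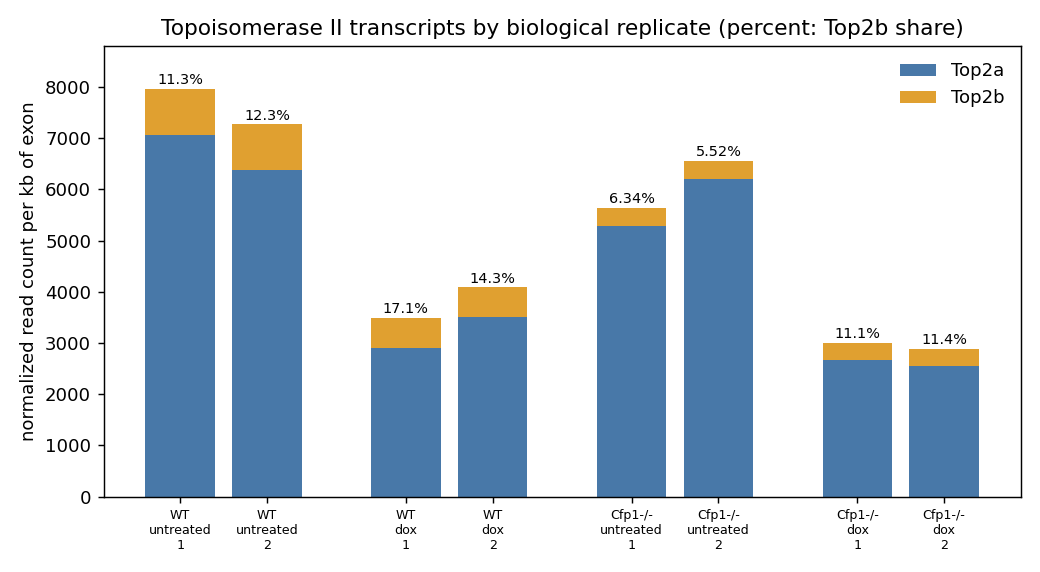
Normalized read count per kb of exon (y axis, linear from 0) of Top2a and Top2b, stacked, in each biological replicate (x axis). The percentage above a bar is the Top2b share of the sum, which is lowest in untreated Cfp1-/- cells (6.34% and 5.52%) and highest in treated WT cells (17.1% and 14.3%).

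Tdp2 encodes the phosphodiesterase that removes topoisomerase II from 5′ DNA ends. The gene (ENSMUSG00000035958) lies at chr13:24923548-24934022 on the plus strand (NCBIm37), spans 10.5 kb and has 7 exons. It stood at 1972 and 2099 normalized read counts in untreated and 1208 and 1433 in treated WT cells, and at 1735 and 1866 against 1009 and 877 in Cfp1-/- cells. As for Top2a, the treated replicates of each line lay below all untreated ones.

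Tdp2 fell 1.49-fold in WT (log2 fold change -0.58, SE 0.142, adjusted p = 0.00808) and 1.85-fold in Cfp1-/- cells (-0.89, SE 0.143, adjusted p = 8.04e-04). The WT call was lost with scaling by total counts (-0.26, adjusted p = 0.145) and without treated WT replicate 1 (-0.46, adjusted p = 0.0602). The responses differed by -0.31 (SE 0.201, adjusted p = 0.632). In untreated cells the lines differed by -0.15 (SE 0.141, adjusted p = 0.441). In treated cells Tdp2 was 1.38-fold lower in Cfp1-/- cells (-0.46, SE 0.143, adjusted p = 0.0409), a call lost without treated WT replicate 2 (adjusted p = 0.214), either untreated Cfp1-/- replicate (0.0595 and 0.0567) or either treated Cfp1-/- replicate (0.0661 and 0.217). It was also lost with scaling by total counts (-0.37, adjusted p = 0.08) and in the fit on the 2 treated groups alone (-0.48, adjusted p = 0.0733).

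Top1 encodes the nuclear topoisomerase I, which relaxes supercoils ahead of RNA and DNA polymerases. The gene (ENSMUSG00000070544) lies at chr2:160471624-160548500 on the plus strand (NCBIm37), spans 76.9 kb and has 21 exons. Its normalized read count was 7884 and 9773 in untreated and 6145 and 7583 in treated WT cells. In Cfp1-/- cells it was 5115 and 5119 untreated and 4538 and 5255 treated, so there the treated replicates lay on either side of the untreated ones.

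Top1 was 1.69-fold lower in untreated Cfp1-/- than in untreated WT cells (log2 difference -0.76, SE 0.155, adjusted p = 0.00528). The response in WT cells was -0.32 (SE 0.154, adjusted p = 0.117) and passed once the replicate number entered the fit as a block (adjusted p = 0.037). In Cfp1-/- cells it was -0.02 (SE 0.154, adjusted p = 0.922), with an interval of 2 SE from -0.33 to 0.29. Between the treated lines Top1 differed by -0.46 (SE 0.154, adjusted p = 0.0524), and with the replicate block the adjusted p was 0.0101.

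Tdp1 encodes the phosphodiesterase that removes topoisomerase I from 3′ DNA ends. The gene (ENSMUSG00000021177) lies at chr12:101122727-101193429 on the plus strand (NCBIm37), spans 70.7 kb and has 14 exons. Its normalized read count was 1017 and 981 in untreated and 748 and 634 in treated WT cells, and 602 and 461 in untreated against 459 and 398 in treated Cfp1-/- cells. The groups were thus ordered as for Top2b, with untreated Cfp1-/- cells below treated WT cells.

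Tdp1 was 1.84-fold lower in Cfp1-/- cells without treatment (log2 difference -0.88, SE 0.183, adjusted p = 0.00573) and 1.58-fold lower with it (-0.66, SE 0.185, adjusted p = 0.0272). The call in treated cells was lost without treated WT replicate 1 (adjusted p = 0.11), treated Cfp1-/- replicate 1 (0.0651) or treated Cfp1-/- replicate 2 (0.157). The response to doxorubicin in WT cells was -0.49 (SE 0.182, adjusted p = 0.0501), and with the replicate block it passed the test (adjusted p = 0.0121). In Cfp1-/- cells it was -0.27 (SE 0.184, adjusted p = 0.256). The responses differed by 0.22 (SE 0.259, adjusted p = 0.826).

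Top1mt encodes the topoisomerase I of mitochondria, where it relaxes the circular genome. The gene (ENSMUSG00000000934) lies at chr15:75487465-75509230 on the minus strand (NCBIm37), spans 21.8 kb and has 14 exons. Of its exon bases 4.99% lie opposite Gm15945, and the authors' counting kept the strands apart. It was at 241 and 217 normalized read counts in untreated and 830 and 789 in treated WT cells, and at 153 and 196 in untreated against 732 and 765 in treated Cfp1-/- cells.

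No treated replicate of either line came near an untreated one. Top1mt rose 3.65-fold in WT (log2 fold change 1.87, SE 0.179, adjusted p = 3.87e-05) and 4.42-fold in Cfp1-/- cells (2.14, SE 0.181, adjusted p = 2.25e-05). It was thereby the 1 member that rose with doxorubicin in either line by this test. The responses differed by 0.28 on the log2 scale (SE 0.248, adjusted p = 0.754), with an interval of 2 SE from -0.22 to 0.77. The lines differed by -0.36 untreated (SE 0.18, adjusted p = 0.145) and by -0.09 treated (SE 0.171, adjusted p = 0.736). Per kb of exon, Top1 exceeded Top1mt 7.08-fold in untreated WT cells (SD 1.59, n = 2) and 1.55-fold in treated ones (SD 0.285). The ratio in Cfp1-/- cells was 5.42 untreated (SD 0.943) and 1.19 treated (SD 0.0859). With the longest transcript, which is much shorter than all exon bases of Top1, these ratios were 19.2 and 4.2 in WT and 14.7 and 3.22 in Cfp1-/- cells.

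Top3a encodes topoisomerase IIIα, which with the helicase Blm resolves crossed DNA molecules and also acts in mitochondria, and Top3b encodes topoisomerase IIIβ, which works with Tdrd3 on RNA as well as DNA. Top3a (ENSMUSG00000002814) lies at chr11:60553560-60590867 on the minus strand and spans 37.3 kb, and Top3b (ENSMUSG00000022779) lies at chr16:16870829-16893083 on the plus strand and spans 22.3 kb (NCBIm37). Top3a was at 1087 and 1000 normalized read counts in untreated WT, 1014 and 1095 in treated WT, 1607 and 1344 in untreated Cfp1-/- and 1176 and 1145 in treated Cfp1-/- cells. Top3b was at 3353 and 2735, 3732 and 2806, 4304 and 3777, and 3882 and 3538 in the same order. The untreated Cfp1-/- replicates were the highest for Top3a, whereas the groups of Top3b overlapped in all but the comparison of untreated lines.

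Top3a was 1.44-fold higher in untreated Cfp1-/- than in untreated WT cells (log2 difference 0.53, SE 0.143, adjusted p = 0.0188), a call lost without untreated WT replicate 2 (adjusted p = 0.119) or untreated Cfp1-/- replicate 1 (adjusted p = 0.117). The same difference for Top3b was 0.44 (SE 0.17, adjusted p = 0.0724) and passed the test with the replicate block (adjusted p = 0.00818). The responses to doxorubicin were 0.06 in WT and -0.30 in Cfp1-/- cells for Top3a (adjusted p = 0.75 and 0.106), and 0.15 and -0.08 for Top3b (adjusted p = 0.498 and 0.72). With scaling by total counts the WT responses were 0.38 for Top3a (adjusted p = 0.0492) and 0.46 for Top3b (adjusted p = 0.0434). In treated cells the lines differed by 0.16 for Top3a (adjusted p = 0.432) and 0.21 for Top3b (adjusted p = 0.395).

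Between the untreated lines, 4 of the 8 genes were thus called. Top2b, Tdp1 and Top1 were lower in Cfp1-/- cells, against 16.1% of all tested genes, and Top3a was higher, against 17.9%. Between the treated lines Top2b, Tdp1 and Tdp2 were lower, against 10.8%, and none was higher, against 15.1%. None passed the study's fold and mean limits between the untreated lines, which 1.82% of tested genes passed upward and 1.51% downward. Each comparison of lines shares a group of samples with each response. By scaling with total counts, the tested genes called higher and lower went from 4174 and 3433 to 5731 and 1836 in WT, from 4386 and 3306 to 5271 and 2057 in Cfp1-/-, from 2825 and 2537 to 3849 and 1610 between untreated lines, and from 2374 and 1700 to 2824 and 1255 between treated lines.

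**Figure D3:**
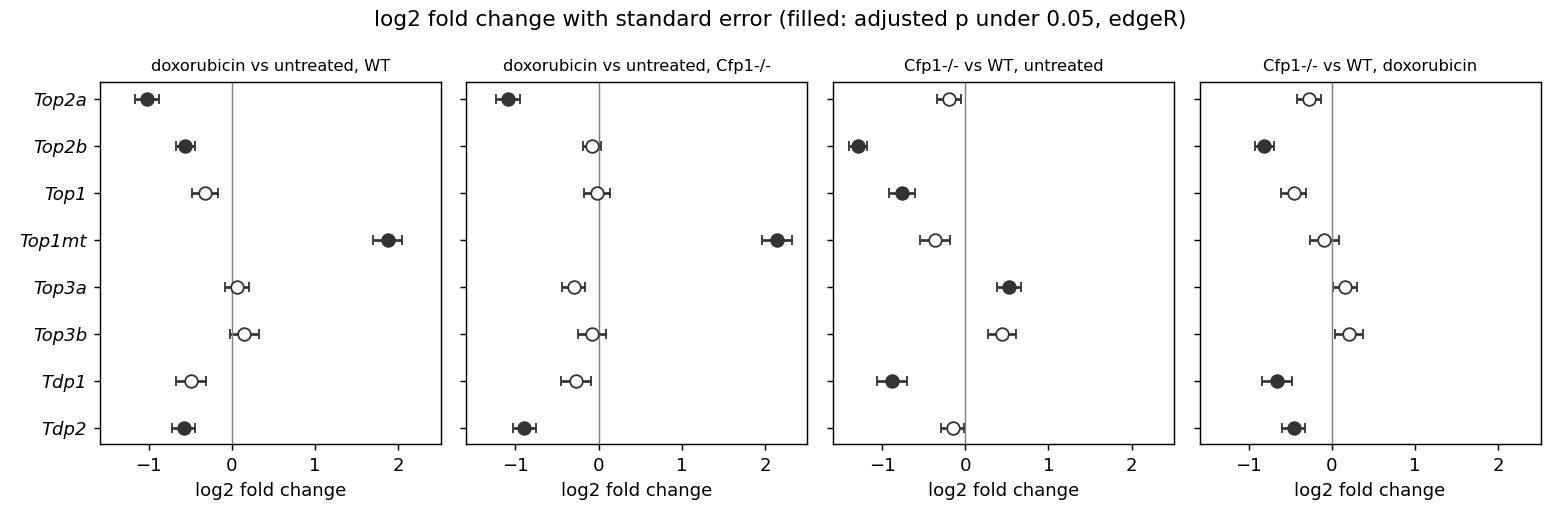
log2 fold change with its standard error (x axis) of the 8 genes (y axis) in the response of each line to doxorubicin and between the lines; filled points have an adjusted p under 0.05. Top1mt stands at 1.87 and 2.14 in the responses, and Top2b is the lowest member between the lines, at -1.29 untreated and -0.81 treated.

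No member differed between the lines in its response by edgeR (0 of 8 called, against 0.114% of tested genes called higher and 0.121% lower), nor by DESeq2 (0 of 8), and 1, Top2b, had an unadjusted p under 0.05. On simulated counts, with the same spread for all of 15333 genes, the same test recovered 10.5% of 200 genes whose responses differed 2-fold. Its recovery at the levels of the 8 members was not tested. For the members, the intervals of 2 SE of the response difference reached down to -0.77 (Top3a) and up to 0.79 (Top2b). A 2-fold difference, which is 1 on the log2 scale, lay outside the interval of each member.

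The members differ widely in level. In untreated WT cells the order per kb of exon was Top2a at 6719 ± 488 normalized read counts per kb (SD, n = 2), Tdp2 at 972 ± 42.9, Top2b at 896 ± 0.372 and Top1 at 844 ± 128. Top3b at 365 ± 52.3, Top3a at 227 ± 13.5, Tdp1 at 183 ± 4.63 and Top1mt at 120 ± 9.07 followed. Top1, with 754 and 935 per kb, overlapped Top2b, and the other neighbours did not overlap. After doxorubicin, Top1mt at 426 ± 15.4 per kb in WT and 394 ± 12.3 in Cfp1-/- cells was above Top3a and Tdp1, and Tdp1 was the lowest member at 126 ± 14.8 and 78.4 ± 7.82. In untreated Cfp1-/- cells Top2b (360 ± 3.11 per kb) stood below Top1 (489 ± 0.278) and Top3b (484 ± 44.7), which overlapped each other. With the longest transcript in place of all exon bases, 4 to 6 of the 8 places in the order were kept, and Top2a stayed the highest in all 4 groups. Top1 then came second in all 4 groups. In untreated WT cells it stood at 2290 per kb, above Tdp2 at 1040 and Top2b at 1006.

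By gene span, the 3 members over 60 kb (Top1, Tdp1 and Top2b) were the 3 called lower in untreated Cfp1-/- cells, a grouping noticed after their values were seen. Of all 3643 tested genes over 60 kb, 18.4% were called lower and 18.1% higher there, with a median log2 difference of -0.02. Of the 4843 tested genes over 20 and up to 60 kb, 16.3% were called lower and 18.2% higher, and of the 7272 of at most 20 kb, 14.8% and 17.6%. The part of gene span in these differences was not tested.

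Correlations between members across the 8 biological replicates are given as a description, because the replicates share groups, depth and libraries. Log-scale normalized read counts of Top2b correlated with those of Tdp1 at r = 0.95 and of Top1 at r = 0.94, and those of Top2a with Tdp2 at r = 0.96 (n = 8). Top1mt ran opposite to Top2a, at r = -0.91. Top3a and Top3b followed each other at r = 0.71, ran against Top1 (r = -0.63 and -0.86) and Top2b (r = -0.66 and -0.70), and had r = 0.20 and -0.18 with Top2a. The genes most like a member by Pearson's r are named next, and they depend on the measure. By Spearman's rho none of the 3 genes named for Top1, Top2b or Top3a was among the 3 most alike, and 68 genes for Top2a and 141 for Tdp2 reached the third highest rho. Among 9499 genes with a mean of at least 200, those with the highest r to Top2a were Ssr2, Hist2h2ac and Twistnb (r = 0.997 for each). For Top2b they were Ralgapa1 (r = 0.995), Gars (0.993) and Qser1 (0.990), for Top1 Tprkb (0.986), Pls3 (0.984) and Rhobtb3 (0.977), and for Top1mt Cgref1 (0.997), Trafd1 (0.997) and Mxra7 (0.996). For Tdp2 they were Fbxo5 (0.993), Dazap2 (0.993) and 1110008F13Rik (0.991), and for Tdp1 Hsph1 (0.993), Grinl1a (0.992) and Gipc1 (0.990). Top3a was followed by Ap3b1 (0.981), Ints3 (0.968) and Hgs (0.965), and Top3b by Bre (0.971), Nid1 (0.970) and Alpl (0.961).

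Of 21 G2 and M phase transcripts, 16 fell in WT and 20 in Cfp1-/- cells and none rose, against 21.8% and 21% of all tested genes called lower, with a median of -0.89 on the log2 scale in WT. Of the 21, 15 and 17 fell with scaling by total counts. The kinase gene Plk1 fell by 1.86 and 1.90, and the spindle genes Nusap1 by 1.74 in WT and Prc1 by 2.12 in Cfp1-/- cells. All 8 tested condensin genes, whose products compact chromosomes together with Top2a, fell in WT and 7 of 8 in Cfp1-/- cells, with medians of -0.69 and -0.64. Smc2, a core ATPase of condensin, fell by 0.91 and 0.84. With scaling by total counts 4 and 5 of the 8 condensin genes were called lower, and all 8 kept their direction in both lines.

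Of 10 genes for cohesin and Ctcf, at whose sites on chromatin Top2b is known to sit, 9 fell in each line. Over all tested genes 21.8% fell in WT and 21% in Cfp1-/- cells. Scaled by total counts, 8 of the 10 fell in WT and 7 in Cfp1-/- cells. Rad21 fell by 1.43 in WT and 1.37 in Cfp1-/- cells. Stag2 (-1.41 in WT and -0.91 in Cfp1-/- cells) and Smc3 (-0.68 and -0.75) lie on chromosomes whose counts were lost in part of 1 treated Cfp1-/- library. Their Cfp1-/- values thus rest on partly lost counts. Smc1a, on such a chromosome too, did not pass the test, at 0.17 and -0.06. Of 20 S phase transcripts, 13 fell and 1 (Rrm2) rose in WT, and 14 fell and 1 (Rrm2) rose in Cfp1-/- cells. Over all tested genes 21.8% fell and 26.5% rose in WT, and 21% fell and 27.8% rose in Cfp1-/- cells. Ccne1 fell by 1.52 and 1.22. With scaling by total counts 2 of the 20 were called lower in WT and 9 in Cfp1-/- cells. Of all 15758 tested genes, 1836 in WT and 2057 in Cfp1-/- cells were then called lower.

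**Figure D4:**
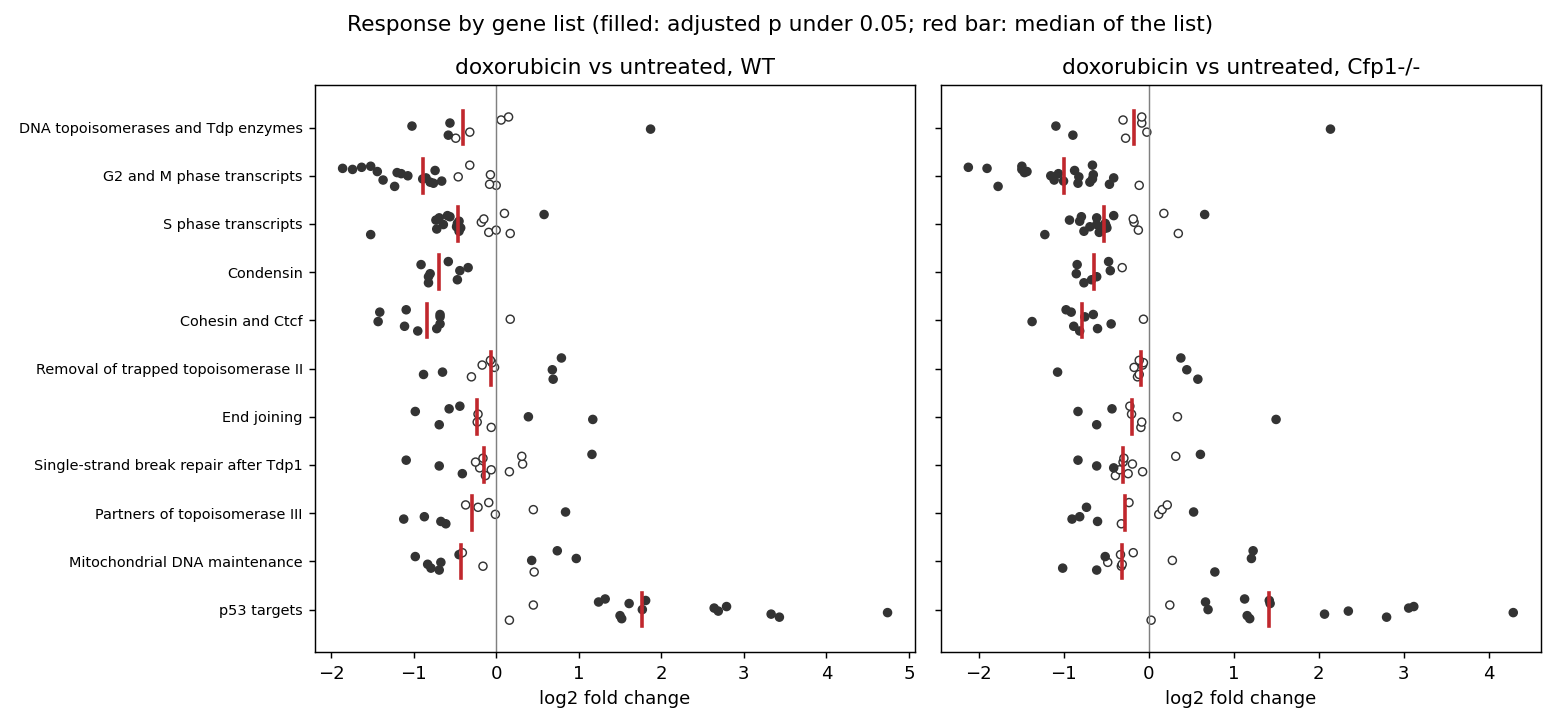
log2 fold change with doxorubicin (x axis) of each tested gene of 11 lists (y axis) in WT and Cfp1-/- cells; filled points have an adjusted p under 0.05 and red bars are list medians. G2 and M phase, condensin and cohesin genes lie mostly below 0, p53 targets at or above 0, and the topoisomerases and Tdp enzymes on both sides.

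In the lists that follow, counts of the main fit are read against the shares of all tested genes called higher and lower. These shares are 26.5% and 21.8% in WT and 27.8% and 21% in Cfp1-/- cells. Counts under other settings have other backgrounds. With scaling by total counts, 5731 of 15758 genes were called higher and 1836 lower in WT, 5271 and 2057 in Cfp1-/- cells, and 3849 and 1610 between untreated lines. The replicate block gave 4692 and 4115 in WT and 4905 and 4078 in Cfp1-/- cells. Of 10 genes that help to remove trapped topoisomerase II beside Tdp2, 3 rose and 2 fell in WT, and 3 rose and 1 fell in Cfp1-/- cells. This is near the shares of the main fit. The SUMO ligase gene Zfp451, whose product aids Tdp2, rose by 0.79 in WT cells (SE 0.139, adjusted p = 0.00125). Its rise of 0.38 in Cfp1-/- cells (adjusted p = 0.0446) was lost with DESeq2 (adjusted p = 0.0631), with its size factors (0.0584), without the filter (0.0563) and without the second technical replicates of the affected libraries (0.0617). Gm505, which encodes the protease Sprtn, rose by 0.69 in WT and 0.58 in Cfp1-/- cells, the latter not called with the first technical replicates alone (adjusted p = 0.056). The nuclease complex gene Nbn fell by 0.88 in WT cells and was lower in untreated Cfp1-/- than in WT cells, by a log2 difference of -1.29. Its partner Rad50 rose by 0.45 in Cfp1-/- cells and was higher there before treatment, by 0.88. Pias4, another SUMO ligase gene, fell by 0.65 in WT and 1.07 in Cfp1-/- cells, and with scaling by total counts the WT call was lost (-0.33, adjusted p = 0.106).

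Of 9 end joining genes, 2 rose and 4 fell in WT and 1 rose and 3 fell in Cfp1-/- cells (2 and 3 with the replicate block). Scaled by total counts, 2 rose and 2 fell in each line. The ligase gene Lig3, which fell by 0.69 in WT and 0.61 in Cfp1-/- cells, is in more than this list. It is counted again among the genes for single-strand break repair and for mitochondrial DNA maintenance below. Nhej1, of the ligation complex, rose by 1.17 in WT and 1.50 in Cfp1-/- cells, and Xrcc4, a partner of DNA ligase IV, fell by 0.98 and 0.83. Of 12 genes for single-strand break repair after Tdp1, 1 rose and 3 fell in each line, and with scaling by total counts 3 rose and 2 fell in WT and 2 rose and 2 fell in Cfp1-/- cells. The scaffold gene Xrcc1 rose by 1.16 in WT and 0.61 in Cfp1-/- cells, and Parp2 fell by 1.09 and 0.83. Where Tdp1 was lower in untreated Cfp1-/- cells, 7 of these 12 genes were higher and 1 was lower, against 17.9% and 16.1% of all tested genes, with a median log2 difference of 0.42 against 0.01 over all tested genes. The counts were 8 and 0 with scaling by total counts, where Parp2 was lost (-0.28, adjusted p = 0.118), and 6 and 1 with DESeq2's size factors or without the filter, where Parp1 (0.37, adjusted p = 0.041) was lost. Xrcc1 was higher there by 0.83 (SE 0.121, adjusted p = 0.00111).

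Of 10 tested partners of topoisomerase III, 1 rose and 4 fell in each line (2 and 4 in WT with the replicate block, 2 and 2 in each line with scaling by total counts). The helicase gene Recql4 rose by 0.84 and 0.53, and the RNA-binding protein genes Fxr1 and Fxr2 fell by 1.12 and 0.87 in WT and by 0.90 and 0.81 in Cfp1-/- cells. In untreated Cfp1-/- cells, where Top3a was higher, Blm was higher by 0.42 (SE 0.138, adjusted p = 0.0423, and 0.0518 with DESeq2's size factors) and Tdrd3 was lower, at -0.86 (SE 0.156, adjusted p = 0.00311). Beside Top1mt, 12 genes for mitochondrial DNA maintenance were tested, of which 3 rose and 6 fell in WT and 3 rose and 3 fell in Cfp1-/- cells. Scaled by total counts, 4 rose and 3 fell in WT and 4 rose and 2 fell in Cfp1-/- cells. Rrm2b, which supplies nucleotides and is a known p53 target, rose by 0.97 and 1.21, and the thymidine kinase gene Tk2 rose by 0.74 and 1.23. The polymerase gene Polg fell by 0.83 in WT cells and was not called in Cfp1-/- cells (-0.31, adjusted p = 0.16). The list's median was -0.43 and -0.32, and Top1mt rose in both lines, as did 3 of the 12 genes in each.

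Of 15 p53 targets, 13 rose in each line and none fell, with Fas, on an affected chromosome, at 4.74 and 4.29 and Btg2 at 3.43 in WT cells. Of the 4 tested genes that carry topoisomerase in their name, Topors, a ubiquitin and SUMO ligase gene, fell by 1.20 and 1.17 and Topbp1, a checkpoint gene, by 0.69 in WT and 0.36 in Cfp1-/- cells, the latter lost with scaling by total counts (adjusted p = 0.321). Spo11, of the meiotic topoisomerase-like enzyme, was called higher in WT cells from means of 1.47 and 6.44 normalized read counts, too few to describe, and its call was lost with the replicate block.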

How the data were processed

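Per the labels and the methods, the authors sequenced stranded, paired-end libraries of RNA freed of ribosomal RNA, aligned them with STAR 2.2.1 to NCBIm37 (mm9) and counted reads per Ensembl gene by HTSeq-count, on its union setting with strand. Raw counts per technical replicate were deposited, as was a normalized signal per biological replicate, which is the sum of its counts over a size factor from DESeq. The first are tested here and the second are the normalized read counts printed. Union mode drops reads on overlapping genes. Columns not assigned to a sample numbered 0.

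Technical replicates were summed, which gave 2 biological replicates in each of 4 groups. The 8 replicates were fitted together with edgeR 4.0.16 (R 4.3.3; filterByExpr, TMM scaling, quasi-likelihood test) with 1 coefficient per group. P-values were adjusted by Benjamini and Hochberg over 15758 genes, and a gene was called at an adjusted p under 0.05. SD have n = 2 per group, and SE come from the fit over all 8 replicates. The step was tested on simulated data, where it recovered 44% of genes changed 2-fold in WT and 53% in Cfp1-/- cells, over 15333 genes.

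Replicate numbers come from the labels. Same-numbered replicates deviated together in all 6 pairs of groups (r from 0.14 to 0.451). The main fit had no term for this pairing, and a fit with the number as a block was the alternative. Exon lengths came from GENCODE vM1 of the same build, and promoters from RefSeq (GRCm38.p6). DESeq2 1.42.0, other scalings, no filter and left-out libraries were further alternatives. The gene lists, and the members, were chosen with earlier results of these data known. All members are named. From each list the genes named are, per comparison, at most 2 that rose and 2 that fell with the largest change among those called, and from the search for like genes the 3 with the highest Pearson r of log2(normalized read count + 1). Some of these are left out for brevity. Smc1a and Smc3 were named after their values were seen. Rmi2, Topaz1, Mgme1 and Sox1 were not found by symbol and are not analysed here.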

Additional observations from a re-analysis of the deposited data

How the results depend on the processing

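The 8 genes and 5 comparisons gave 352 values under alternative settings, of which 320 kept direction and side of the threshold, 20 passed it only under the alternative, 4 no longer passed and 8 changed sign; none of the 8 was called. Fits without 1 replicate each gave 294, 7, 11 and 8 of 320. For those, a group left with 1 replicate was assumed to vary like the others.

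With scaling by total counts, which moved the median of all tested genes by 0.31 in WT, 0.21 in Cfp1-/-, 0.19 between untreated and 0.09 between treated lines, the response in Cfp1-/- cells was 0.20 for Top1, 0.14 for Top2b and 0.13 for Top3b, the untreated difference for Tdp2 was 0.04 and the treated difference for Top1mt was 0.01. The response of Top1 in Cfp1-/- cells was 0.03 with the first technical replicates alone and 0.02 when both treated replicates 1 were left with their first technical replicate, the last also with the replicate block, a combination added after the data were seen. Leaving out 1 replicate, the WT response ranged from -0.01 to 0.12 for Top3a and from -0.08 to 0.33 for Top3b, the Cfp1-/- response from -0.13 to 0.06 for Top1 and from -0.19 to 0.01 for Top3b, and the difference of responses from -0.21 to 0.07 for Top2a. The causes were not tested.

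With 1 replicate left out, the difference between treated lines ranged from -0.85 to -0.79 for Top2b, from -0.79 to -0.55 for Tdp1 and from -0.58 to -0.33 for Tdp2. Without treated Cfp1-/- replicate 1 or 2, fewer members were called there, and fewer of all tested genes as well. With the replicate block 6 members were called in WT, 3 in Cfp1-/- cells, 5 between untreated and 4 between treated lines. Beside the Top1, Tdp1 and Top3b calls given above, the block changed no call of a member. Of all 15758 tested genes, the block called 8807, 8983, 6870 and 5795 in the same order. The main fit called 7607, 7692, 5362 and 4074 of them. Calls gained with 1 replicate left out were Top1 between treated lines without either untreated WT replicate or treated WT replicate 1 (adjusted p from 0.0361 to 0.0406), Top3b between untreated lines without either treated WT replicate (0.0473 and 0.0477) and Tdp1 in WT without either untreated Cfp1-/- replicate (0.0406 and 0.0416). DESeq2 called Tdp1 in WT (adjusted p = 0.0245) and Top1 between treated lines (0.0305). Over all tested genes, 37 differed in response by edgeR, 221 by DESeq2, 133 without the filter and 243 with the replicate block. Counts limit the precision most for the lowest members, Top1mt and Tdp1, whose smallest raw counts were 165 and 413.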
